A study of Rattus norvegicus with 24 samples.

Results

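The genes described here responded to an injected biodegradable polymer gel in opposite directions at the 2 injection sites of rat skin, intradermal (ID, within the dermis) and subcutaneous (SC, below it). A gene was taken when its change at ID, its change at SC and the difference between these changes (the interaction, ID change minus SC change) each had a p under 0.05 after Benjamini-Hochberg adjustment (quasi-likelihood test, edgeR), and the 2 changes had opposite signs. Of 14763 genes tested, from 23095 in the table, 1208 met this rule. They comprised 823 genes that were lower in ID gel and higher in SC gel than their own saline controls and 385 genes that were higher in ID gel and lower in SC gel. Since these tests chose the genes, their changes and p-values are given below as a description of the members.

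The 24 libraries came from dorsal skin of Sprague-Dawley rats, sampled at day 7. The 6 libraries of each group held skin injected with T-gel ID, saline ID, T-gel SC or saline SC, and all groups thus shared an injection. The labels name no transgene and give no age, and do not say that the replicates were separate animals, so every p-value measures the spread between these samples only. The study asked why the response of the tissue to the gel depends on the site.

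Skin consists of an epidermis of keratinocytes with its hair follicles and sebaceous glands, a collagen-rich dermis, and fat below. Basal keratinocytes anchor to the basement membrane and divide, and suprabasal keratinocytes build keratin filaments, desmosomes and a lipid barrier sealed by the cornified layer. Implanted polymers attract macrophages that can fuse and wall the material off, and hypoxic or activated cells rely on glycolysis and export lactate.

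Library totals were 14024353 to 18821730 counts. The unit below is CPM (counts scaled to library size with TMM factors) unless FPKM (count per gene length and library total) is named, and n was 6 libraries per group. Keratinocyte and collagen genes, which define skin, were present in every group, but fast skeletal muscle genes (17 tested) also summed to a median of 69500 CPM in ID saline and 74000 in SC saline, against 973 in ID gel and 31.7 in SC gel. The part of this loss of muscle RNA in the results was not tested. Gel replicates 1 to 3 stood apart from gel replicates 4 to 6 for many genes, and with either set alone 868 or 615 genes were lower ID and higher SC, and 241 or 190 higher ID and lower SC. Of the reported members, 490 and 88 were opposite with both sets. Genome coordinates are those of the file. Their build is uncertain, since the submitters' notes give Rnor_6.0 whereas 47 genes are placed on unplaced sequences named as in a later assembly.

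At ID, 36.6% of tested genes were called higher and 37.0% lower, and at SC 24.7% higher and 26.1% lower. Both changes were called for 6012 genes. Most of these, 4804, changed in the same direction (2223 higher and 2581 lower), while the 1208 opposite genes made up 20.1%. The members lower ID and higher SC were 5.57% of all tested genes and those of the other direction 2.61%. The difference between the sites was called for many more genes, 32.8% with the ID change above the SC change and 23.0% with it below. Of the 3886 genes with a called difference and estimates of opposite sign, 1886 were called at ID only, 642 at SC only and 150 at neither site.

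**Figure D1:**
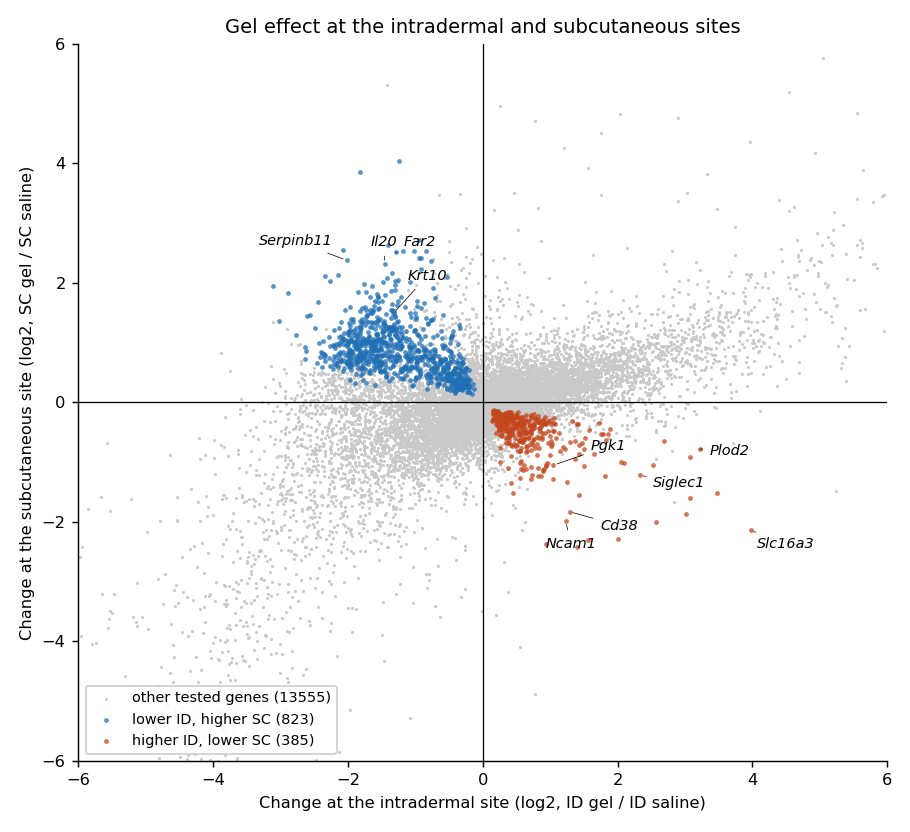
Log2 change with gel at the intradermal site (horizontal) against the subcutaneous site (vertical) for each tested gene, with opposite members in blue (823) and orange (385) and other genes in grey. The axes end at 6 log2 units, beyond which lay 229 genes and 0 members. Members lower ID and higher SC lie at the upper left, with a median of -1.33 and 0.81, and the others lie nearer the origin at the lower right, with a median of 0.52 and -0.39.

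The 2 directions differed in size. The median member lower ID and higher SC fell by 1.33 log2 units at ID and rose by 0.81 at SC, and 234 of the 823 changed by at least 1 log2 unit at both sites. The median member of the other direction rose by 0.52 at ID and fell by 0.39 at SC, and 19 of the 385 passed 1 log2 unit at both. The ID change was the larger in 612 (74.4%) and 242 (62.9%) of them. Gel and saline libraries did not overlap at either site for 279 (33.9%) and 54 (14.0%) members, and for 18.4% of all tested genes. Members had to be called at both sites, which most tested genes were not. These shares are thus not a like comparison and say nothing of how well opposite genes separate. At the limit of the rule, Disc1 (largest of its 3 adjusted p-values 0.0498) and Mpig6b (0.0499) stood just inside, and Nrip3 (0.05004) and Pank1 (0.0502) just outside.

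The gel groups differed in far more members than the saline groups did. The rule took genes with opposite gel changes in these same libraries, which largely fixes a difference between the gel groups in advance. The counts for the gel groups are thus a description of the members and no support for the opposition. For 767 (93.2%) members lower ID and higher SC, ID gel had the lowest and SC gel the highest of the 4 group means, and for 345 (89.6%) of the other direction the reverse held. ID gel was called below SC gel in 820 and above it in 377 of them, where over all tested genes 28.0% were called lower and 40.1% higher in ID gel. ID saline differed from SC saline in 51 (6.20%) and 32 (8.31%) members, against 3.22% of all tested genes. Of these saline differences, 50 and 32 pointed the way that widens the opposition. The rule measured both changes against these saline groups, so it also favours saline differences of this sign. The saline counts and medians are thus a description of the members as well. The median of ID saline against SC saline was 0.27 log2 units in the larger set, -0.09 in the smaller and 0.01 over all genes. With all 12 saline libraries as a common control 654 and 286 members were still opposite, and with the saline groups exchanged between the sites 443 and 201.

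**Figure D2:**
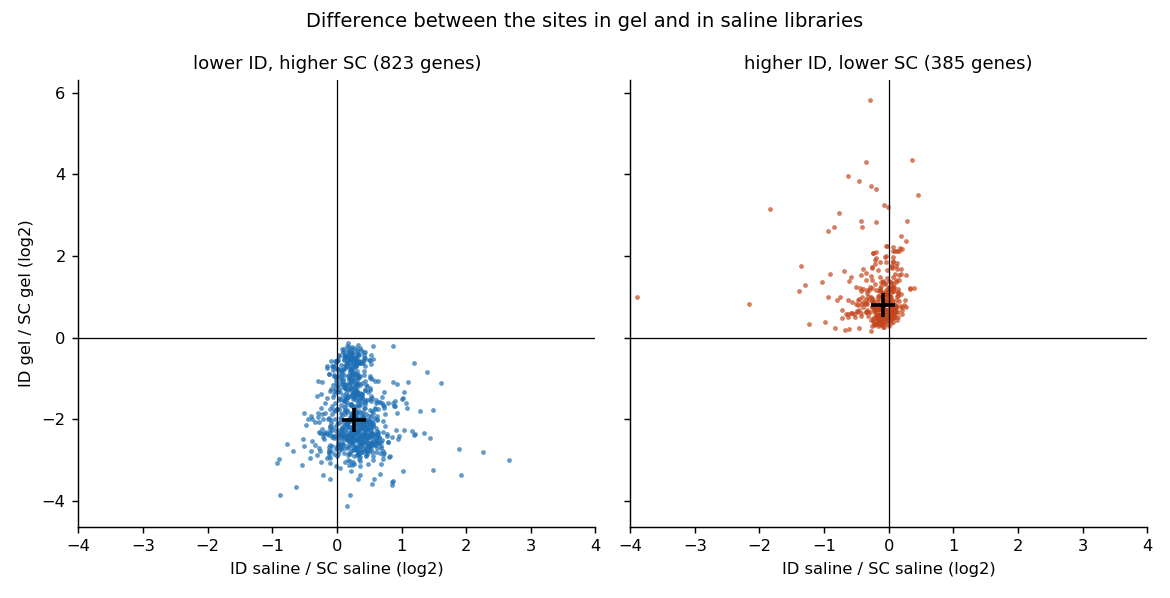
Log2 difference between ID gel and SC gel (vertical) against the difference between ID saline and SC saline (horizontal) for the 823 and the 385 members, with a cross at the medians (0.27 and -2.03 on the left, -0.09 and 0.80 on the right). In both panels the medians lie farther from 0 on the gel axis than on the saline axis, which the choice of members largely fixes.

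The number of members that other settings kept depended on the direction. With RLE factors, with library totals alone and without SC saline replicate 2, 821 (99.8%) members lower ID and higher SC met the rule every time, but 77 of the 385 members higher ID and lower SC. A fit to log2(FPKM + 0.1), which also changed the test to limma and the filter to one that left 13261 genes, lost a further 82 and 10 of these. The phrase "under all scalings" below means all 4 of these settings, which 739 (89.8%) and 67 (17.4%) members passed. Scaling by totals moved the median of all genes to -0.165 log2 units at ID and 0.225 at SC, which is of the size of many changes in the smaller set. TMM on all libraries gave medians of -0.014 and -0.004. All 4 settings gave lower medians at ID (-0.027 to -0.165) and higher ones at SC (0.028 to 0.23). Such shifts favour the direction lower ID and higher SC and work against the other. The high share kept there was thus largely fixed in advance and is no support for it. The share of SC calls that were higher was 48.7% with TMM, 73.5% with library totals and 74.6% with FPKM, and at ID it was 49.7%, 40.9% and 42.6 to 42.8%. Without SC saline replicate 2, 149 genes were higher ID and lower SC, and 1023 were lower ID and higher SC. The 67 genes that met the rule under all 4 settings had a median of 0.78 log2 units at ID and -0.74 at SC. In every fit that left out 1 library, 655 of the 823 and 120 of the 385 members met the rule. Over every setting tried, these fits included, 303 and 40 did.

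**Figure D3:**
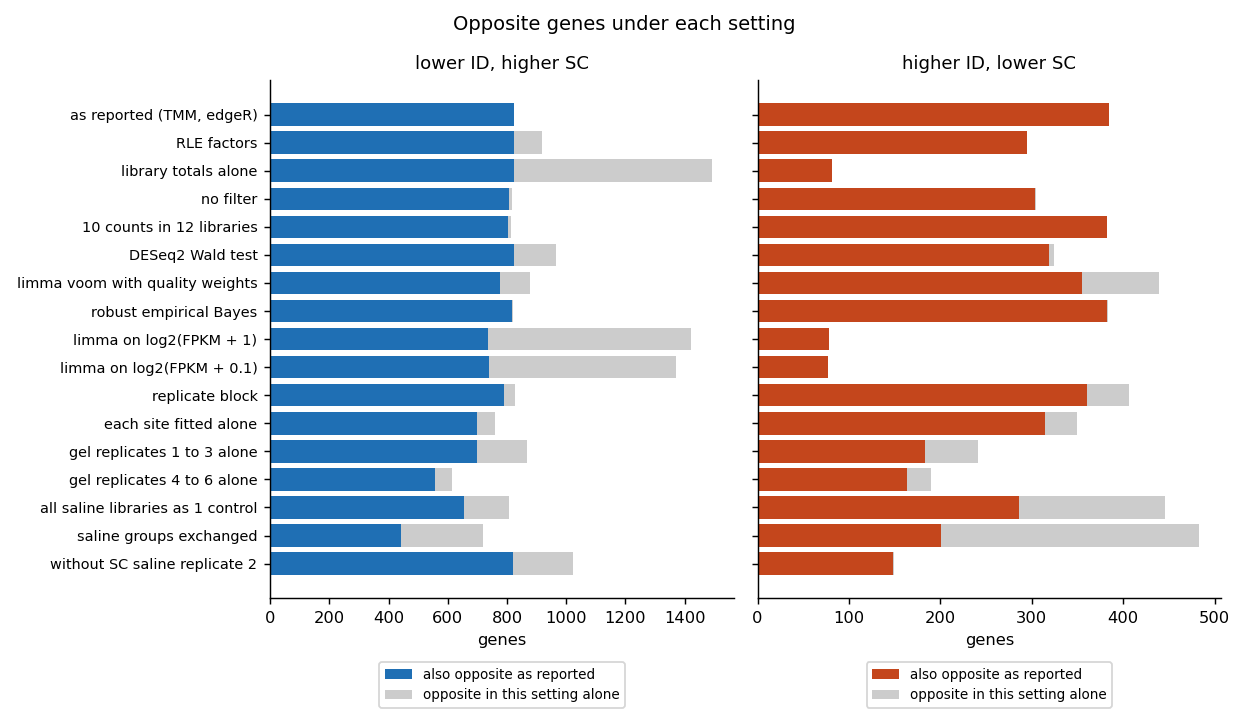
Number of genes that met the rule under each setting, with those that are also members as reported in colour and genes that met it in that setting alone in grey. The set lower ID and higher SC stays at or above 615 genes, whereas the other falls from 385 to between 77 and 82 with library totals or FPKM.

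Promoter sequences give context on what the members share outside the counts. RefSeq windows of the 250 bases before the start (assembly GRCr8) matched by symbol 582 of the 823 and 295 of the 385 members, and 11024 of all tested genes. The AP-1 motif TGANTCA (N any base, both strands alike) was in 8.08% of the windows of members lower ID and higher SC, 3.05% of those of the other direction and 4.78% of all. The core ACGTG of hypoxia response elements (either strand, so also CACGT) was in 13.7%, 32.2% and 21.2%. This core holds a CG pair, and the median number of CG pairs per window was 10, 17 and 15 in the same order. Its part in those shares was not tested. Of 4 glycolysis and hypoxia members with a window 0 held ACGTG, and of 12 suprabasal members 2 held AP-1. A match is only a match of letters. Below are windows of 5 members that hold a match, in capitals, of which Perp and Wnt16 were lower ID and higher SC and the others higher ID and lower SC. Perp (chr1:15361534-15361783, + strand) has AP-1 letters that begin 68 bases before the start. Wnt16 (chr4:51786478-51786727, + strand) has them 249 bases before it. Plod2 (chr8:101964068-101964317, + strand) holds 2 matches of ACGTG. Gaa (chr10:105028105-105028354, + strand) holds an overlapping pair that reads the same on both strands. Slc16a3 (chr10:106712078-106712327, + strand), the member with the largest ID rise of that direction, holds an AP-1 match and 0 of ACGTG.
Perp: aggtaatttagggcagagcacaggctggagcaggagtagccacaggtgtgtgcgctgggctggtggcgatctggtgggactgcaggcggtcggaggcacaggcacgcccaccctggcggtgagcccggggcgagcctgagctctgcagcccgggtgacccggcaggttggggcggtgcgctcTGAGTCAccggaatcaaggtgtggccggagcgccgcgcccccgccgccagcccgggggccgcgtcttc
Wnt16: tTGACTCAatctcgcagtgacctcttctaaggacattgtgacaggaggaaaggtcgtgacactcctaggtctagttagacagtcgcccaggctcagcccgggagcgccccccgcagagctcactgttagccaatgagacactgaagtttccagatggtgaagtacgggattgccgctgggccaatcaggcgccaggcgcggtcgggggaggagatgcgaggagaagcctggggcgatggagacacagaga
Plod2: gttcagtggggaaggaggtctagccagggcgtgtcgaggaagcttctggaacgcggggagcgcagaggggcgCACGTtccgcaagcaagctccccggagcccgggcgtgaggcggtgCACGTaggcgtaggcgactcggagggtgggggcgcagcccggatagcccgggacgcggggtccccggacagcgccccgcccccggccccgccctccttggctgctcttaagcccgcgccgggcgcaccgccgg
Gaa: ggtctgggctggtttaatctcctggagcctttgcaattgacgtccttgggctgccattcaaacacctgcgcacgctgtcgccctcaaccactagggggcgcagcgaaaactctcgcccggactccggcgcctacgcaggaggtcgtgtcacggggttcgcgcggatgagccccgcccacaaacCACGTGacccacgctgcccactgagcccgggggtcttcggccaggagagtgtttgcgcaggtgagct
Slc16a3: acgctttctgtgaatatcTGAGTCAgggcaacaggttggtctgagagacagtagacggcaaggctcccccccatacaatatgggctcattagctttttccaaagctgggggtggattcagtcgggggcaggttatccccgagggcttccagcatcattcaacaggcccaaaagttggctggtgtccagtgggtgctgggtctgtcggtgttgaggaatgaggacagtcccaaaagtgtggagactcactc

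The gene lists of cell types and pathways held 133 of the 823 members lower ID and higher SC, and 50 of the 385 of the other direction. Most members were thus in no list, and the list results below do not describe them. Among the listed members lower ID and higher SC, many were genes of the epidermis. Of 15 tested genes of basal keratinocytes, 14 were lower at ID and 11 higher at SC (medians -1.75 and 0.75 log2 units, against -0.01 and 0.00 over all tested genes), and 10 were members. They include Krt5 (the basal keratin), the hemidesmosome genes Col17a1, Itga6 and Itgb4, the laminin chain Lamb3, and the desmosome genes Dsg3, Dsc3 and Perp. Summed over these 15 genes, the level was 866 to 1860 CPM in ID gel (median 1250) and 2990 to 4620 in ID saline (3930). At SC it was 4780 to 7190 in gel (5420) and 2710 to 4080 in saline (3170). Gel and saline did not overlap at either site. In bulk skin, fewer cells of a type and less RNA per cell cannot be told apart.

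Perp (chromosome 1, 13542067 to 13554511), a tetraspan protein of desmosomes, ran from 97.3 to 272 CPM in ID gel (median 170) and from 501 to 921 in ID saline (716). The SC values ran from 893 to 1440 in gel (1080) and from 406 to 674 in saline (486). All ID gel libraries lay below, and all SC gel libraries above, every saline library of their site. Perp thus fell by 2.01 ± 0.23 (SE) log2 units at ID (4.02-fold, adjusted p = 3.72e-08) and rose by 1.14 ± 0.22 at SC (2.21-fold, adjusted p = 0.000178). Krt5 fell by 1.75 ± 0.23 and rose by 1.03 ± 0.23 log2 units. Col17a1, the collagen of hemidesmosomes, had its larger change at SC, from a median of 121 to 334 CPM (1.5 ± 0.15 log2 units), while at ID it fell from 141 to 67.1. Of the 27 tested basement membrane genes 5 were members, among them Col17a1, Col7a1, Col4a6 and Lamb3. Col7a1, the collagen of anchoring fibrils, fell by 1.47 log2 units at ID and rose by 1.2 at SC. The medians of that list were -1.12 and -0.24.

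Of 27 tested suprabasal and cornified genes all but 1 were lower at ID, 14 were higher and 1 lower at SC (medians -1.85 and 0.71), and 13 were members, among them Krt1, Krt10, Loricrin, Dsg1, Spink5, Tgm3 and Lce1f. Krt10 (chromosome 10, 84338706 to 84343701), the suprabasal partner of Krt1, ran from 587 to 2130 CPM in ID gel (median 1100) and from 1850 to 3670 in ID saline (3020). In SC libraries it ran from 5050 to 7620 in gel (5790) and from 1590 to 2480 in saline (2090). ID gel overlapped ID saline by its highest library, and SC gel lay wholly above SC saline. The changes were -1.32 ± 0.23 and 1.5 ± 0.23 log2 units, and those of Krt1 were -1.35 ± 0.25 and 1.55 ± 0.25. In ID gel, replicates 1 to 3 averaged 809 CPM of Krt10 and replicates 4 to 6 averaged 1600, both below the ID saline mean of 2990. Not all keratinocyte genes followed. Ivl (involucrin, a precursor of the cornified envelope) fell at both sites, by 3.66 and 1.61 log2 units, and Gata3, a transcription factor of the epidermis and of lymphocytes, fell by 2.48 and 0.70. Keratins are similar in sequence, and the treatment of reads shared between them is not stated in the sources used here.

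The stress keratin Krt6a, of hyperproliferative epidermis, fell by 1.52 ± 0.43 and rose by 1.05 ± 0.42 log2 units, with overlap of gel and saline at both sites. Its SC values ran from 14.2 to 69.7 CPM in gel and from 12.4 to 23.7 in saline. Stfa2, a stefin protease inhibitor, fell by 0.98 and rose by 1.70, with overlap at ID. Krt75, a keratin of the hair follicle, went the other way, with 0.89 at ID and -1.13 at SC, but did not keep both calls under all scalings. Over the 10 tested genes of this list the median was 0.09 at ID and 1.38 at SC, and 3 and 1 were members.

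**Figure D4:**
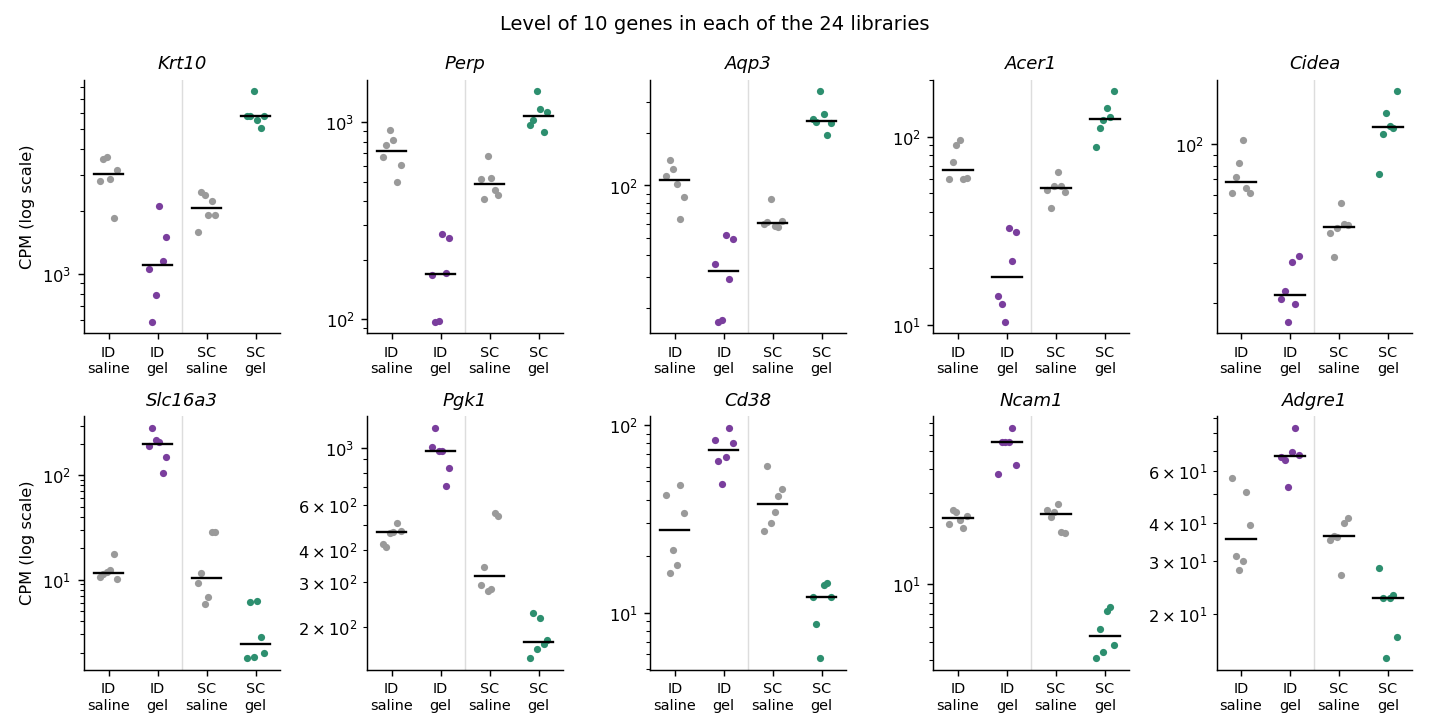
CPM on a log scale in each of the 24 libraries for 10 members, with a line at the median of each group of 6. The genes of the upper row (Krt10, Perp, Aqp3, Acer1, Cidea) are lowest in ID gel and highest in SC gel, and those of the lower row (Slc16a3, Pgk1, Cd38, Ncam1, Adgre1) are highest in ID gel and lowest in SC gel.

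The lipid barrier of the epidermis had the largest share of opposite members. Of 29 tested genes, 25 were lower at ID, 23 were higher and 0 lower at SC (medians -1.59 and 0.84), and 20 (69.0%) were members lower ID and higher SC, against 5.57% of all genes. All 20 kept both calls under all scalings, which favour this direction. They cover fatty acid elongation (Elovl1, Elovl4, Elovl6, Elovl7), ceramide synthesis and breakdown (Cers3, Cers4, Degs2, Sptlc3, Acer1, Smpd1), and the lipoxygenases Alox12b and Aloxe3 with Sdr9c7, which process linoleoyl ceramides for the cornified envelope. Acer1 (chromosome 9, 1793139 to 1824434), an alkaline ceramidase of the epidermis, ran from 10.5 to 32.8 CPM in ID gel (median 18.1) and from 59.8 to 96.1 in ID saline (66.9). At SC it ran from 88.6 to 174 in gel (125) and from 42.0 to 64.7 in saline (53.5). Neither site overlapped, and the changes were -1.83 ± 0.23 and 1.26 ± 0.23 log2 units. Elovl6, which elongates palmitate, changed by -1.3 ± 0.19 and 1.44 ± 0.19. With the saline groups exchanged 11 genes of the list met the rule, with medians of -1.28 and 0.49.

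Of 37 junction genes of epithelia 33 were lower and 2 higher at ID, while at SC 13 were higher, 4 lower and 20 not called, and 10 were members (medians -1.99 and 0.35). Pkp1, a desmosomal plaque protein, fell by 1.90 and rose by 0.99 log2 units. Of 22 channels and transporters of epithelia 14 were lower and 6 higher at ID, 12 were higher and 2 lower at SC, and 7 were members, among them the calcium channels Trpv3 and Trpv6. Aqp3 (chromosome 5, 56239201 to 56244720), the water and glycerol channel of keratinocytes, ran from 16.8 to 52.2 CPM in ID gel (median 32.4) and from 64.8 to 140 in ID saline (108). At SC it ran from 194 to 344 in gel (234) and from 57.9 to 83.8 in saline (61.2). The groups did not overlap at either site, and the changes were -1.65 ± 0.24 and 1.95 ± 0.24 log2 units, a difference of 3.60 ± 0.34 (12.1-fold, adjusted p = 2.43e-08). Per length, the group mean of Aqp3 was 16.9 FPKM in ID gel and 158 in SC gel, and that of Perp was 86.2 and 679.

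Several of the members with large changes at both sites encode protease inhibitors, which were not a list of their own. Serpinb11, a clade B serpin, changed by -2.02 ± 0.35 log2 units at ID and 2.38 ± 0.31 at SC, at low levels (medians 0.689 CPM in ID gel, 2.81 in ID saline, 8.24 in SC gel and 1.26 in SC saline). Slpil3, related to the leukocyte protease inhibitor Slpi, changed by -1.85 ± 0.30 and 1.85 ± 0.29, and Serpinb13, a serpin of squamous epithelium, by -1.75 ± 0.25 and 1.60 ± 0.24. Wfdc18, of the whey acidic protein family, was not a member and rose at both sites, by 1.34 and 7.56 log2 units. Serpina12 (vaspin) changed by -1.79 and 1.59, and its saline groups also differed, by 0.96 log2 units (adjusted p = 0.0334 by the quasi-likelihood test of edgeR, Benjamini-Hochberg adjusted). Skint1, known in the mouse for the selection of epidermal gamma delta T cells, changed by -1.97 ± 0.26 and 1.60 ± 0.23.

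Some of these members are neighbours in the genome. Runs of at least 3 adjacent tested genes that were all lower ID and higher SC numbered 17 and held 72 genes (8.75% of the 823), and there was 1 run of the other direction, of 3 genes (G6pc3, Hdac5, Hrob). The longest lay on chromosome 2 at 178182848 to 178483424 and held 16 genes, among them the late cornified envelope genes Lce6a, Lce1g, Lce1f and Lce1l, and Kprp. Lce1f ran from 1.75 to 7.69 CPM in ID gel (median 4.97), 9.19 to 17.6 in ID saline (15.2), 19.1 to 42.8 in SC gel (23.8) and 5.67 to 15.8 in SC saline (9.68), with no overlap at either site. Other runs held Kcns1, Wfdc5, Wfdc12, Slpil3 and Slpil2 on chromosome 3, Serpinb5, Serpinb12, Serpinb13 and Serpinb3a on chromosome 13, Il36b, Il36rn and Il1f10 on chromosome 3, and Per1, Aloxe3 and Alox12b on chromosome 10. Genes of these clusters resemble each other, so reads shared within a family could tie their counts.

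**Figure D5:**
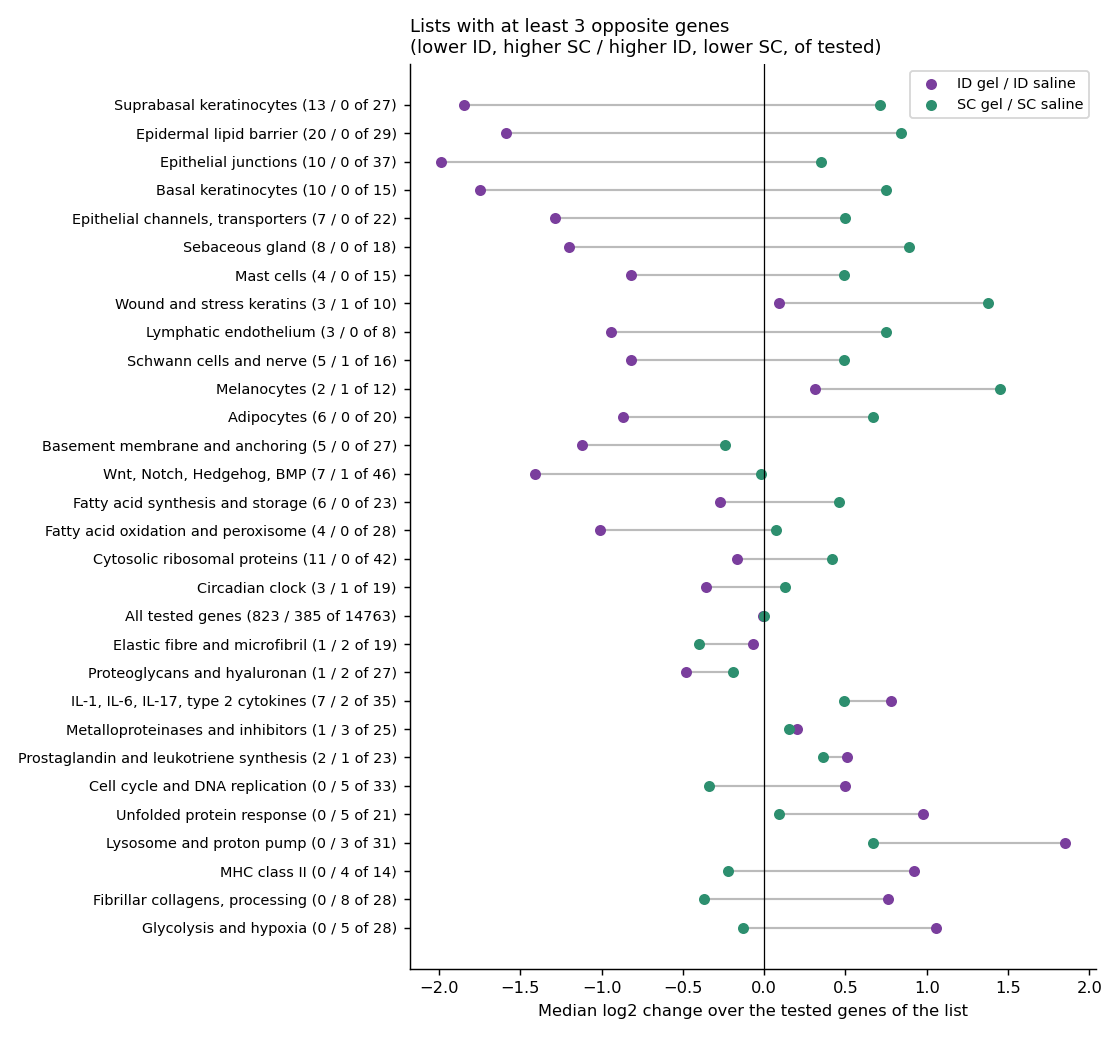
Median log2 change over the tested genes of each list with at least 3 members, at ID in purple and SC in green, with the number of members lower ID and higher SC, then higher ID and lower SC, of those tested in brackets. Left of 0 at ID and right of 0 at SC lie the basal, suprabasal, lipid barrier, junction, sebaceous, adipocyte, mast and Schwann cell lists. Stress keratins (0.09 and 1.38) lie right of 0 at both sites, and basement membrane genes (-1.12 and -0.24) left of it. The MHC class II, collagen, cell cycle and glycolysis lists lie right of 0 at ID and left of 0 at SC. The SC medians of MHC class II and glycolysis reach 0.02 and 0.11 with library totals.

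Sebaceous gland genes, which make the wax and neutral lipids of sebum, showed 12 of 18 lower at ID and 14 higher at SC, with 8 members (medians -1.20 and 0.89). Far2 (chromosome 4, 181007622 to 181087255), which reduces fatty acids to wax alcohols, ran from 8.70 to 21.6 CPM in ID gel (median 12.9) and from 23.0 to 41.2 in ID saline (38.1). The SC values ran from 105 to 228 in gel (160) and from 18.6 to 42.9 in saline (26.2). Its SC rise of 2.51 ± 0.25 log2 units (5.71-fold) exceeded its ID fall of 1.29 ± 0.24. Cidea, a lipid droplet protein of sebocytes and brown fat, changed by -1.64 ± 0.19 and 1.5 ± 0.19, and its saline groups differed by 0.78 (adjusted p = 0.0246 by the quasi-likelihood test of edgeR, Benjamini-Hochberg adjusted). Cyp17a1, the steroid hydroxylase of androgen synthesis, changed by -2.05 and 1.54, with a saline difference of 1.19 log2 units in the same direction as the opposition.

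Adipocyte genes had 14 of 20 lower and 2 higher at ID, 9 higher and 2 lower at SC, and 6 members (Adipoq, Cfd, Cidea, Lep, Pck1, Pparg). Lep, the hormone leptin, ran from 5.49 to 18.7 CPM in ID gel (median 7.61), 14.5 to 23.9 in ID saline (17.7), 14.9 to 164 in SC gel (67.8) and 20.2 to 83.2 in SC saline (24.1). Its groups overlapped at both sites, and 10 of the 24 fits that left out a library kept it as a member. SC gel replicates 1 to 3 averaged 102 CPM and replicates 4 to 6 averaged 50.2, and those of SC saline 47.2 and 22.2. With gel replicates 4 to 6 alone the SC median of the list was 0.16 instead of 0.67.

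Lists of other resident cell types held some members of the same direction, but for mast, Schwann and lymphatic cells the median of the summed level was not lower in ID gel than in ID saline. A sum is set mostly by its most abundant genes, and it can rise while most genes of a list fall. The median ID change over the genes of these lists was -0.82, -0.82 and -0.94 log2 units in the same order. Of 15 mast cell genes 9 were lower and 3 higher at ID, 7 were higher and 1 lower at SC, and 4 were members (Cma1, Ms4a2, Hpgds, Tph1). Cma1, mast cell chymase, ran from 6.92 to 15.6 CPM in ID gel (median 10.8) and from 20.7 to 34.1 in ID saline (24.3). At SC it ran from 40.6 to 73.7 in gel (50.4) and from 19.3 to 28.1 in saline (26). Gel and saline were apart at both sites, and the saline groups differed by 0.06 log2 units. The changes were -1.28 ± 0.18 and 1.10 ± 0.17. Summed over the 15 genes, the medians were 216 CPM in ID gel, 192 in ID saline, 303 in SC gel and 210 in SC saline, with overlap at ID. Other proteases of these cells were not members. Cpa3, a carboxypeptidase, fell by 1.70 log2 units at ID and had a change of 0.48 at SC that was not called, and Tpsab1, a tryptase, had an uncalled change of -0.08 at ID and rose by 2.00 at SC.

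Of 16 Schwann cell and nerve genes 9 were lower and 4 higher at ID, and 10 were higher and 1 lower at SC (list medians -0.82 and 0.49). Members lower ID and higher SC numbered 5, among them Cdh19, Scn7a and Sox10, and Ncam1 was a member of the other direction. The sum over the list was nevertheless higher in ID gel, at 515 to 653 CPM, than in ID saline, at 364 to 442, and at SC it was 584 to 949 in gel and 372 to 582 in saline. Of 8 lymphatic endothelial genes 5 were lower and 1 higher at ID, and Mmrn1, Reln and Prox1 were members, although the sum over the list had a median of 294 CPM in ID gel and 210 in ID saline. Mmrn1 changed by -1.27 ± 0.20 and 1.10 ± 0.19. Cd207 (langerin), the marker of Langerhans cells of the epidermis, fell by 1.5 ± 0.20 and rose by 1.03 ± 0.19, and was the sole member among 17 dendritic cell genes, 12 of which rose at ID. Of 12 melanocyte genes 5 were higher and 4 lower at ID (median 0.31), 8 were higher and 2 lower at SC (median 1.45), and 2 and 1 were members. Mlana, a melanosome protein, changed by -1.02 and 1.19 log2 units, whereas Mitf, the transcription factor of melanocytes that macrophages and osteoclasts use as well, changed by 1.32 and -0.31. The SC call of Mitf rested on a small change and held in 3 of the 24 fits that left out a library.

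Among signals between cells, the IL-20 and IL-36 groups of epidermal cytokines contributed members lower ID and higher SC, 7 of 35 cytokine and receptor genes (Il20, Il20ra, Il20rb, Il34, Il36g, Il36rn, Il17rc). The list as a whole did not fall at ID. There 21 of the 35 were higher and 11 lower, and at SC 16 were higher and 2 lower (medians 0.78 and 0.49). Il20 (chromosome 13, 42380981 to 42384625), a cytokine of the IL-10 family that acts on keratinocytes, ran from 2.48 to 4.88 CPM in ID gel (median 3.70) and from 6.48 to 12.3 in ID saline (9.70). At SC the range was from 24.9 to 35.7 in gel (30.1) and from 4.24 to 7.70 in saline (6.50). Its SC rise of 2.32 ± 0.17 log2 units (5.01-fold) was larger than its ID fall of 1.46 ± 0.18, and the difference between them had an adjusted p of 3.34e-10 by the quasi-likelihood test of edgeR, Benjamini-Hochberg adjusted. Its receptor chain Il20ra changed by -1.28 ± 0.29 and 1.35 ± 0.28. Il33 and Il13ra2 were opposite in the other sense, Il33 (an alarmin of stromal and epithelial nuclei) with 1.51 ± 0.22 at ID and -0.60 ± 0.21 at SC. Neither kept both calls under all scalings.

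Wnt ligands of the epidermis were members of the same direction. Of 46 genes of the Wnt, Notch, Hedgehog and BMP pathways 35 were lower at ID, while SC had 11 higher and 16 lower, and 7 were members (Wnt3, Wnt4, Wnt7b, Wnt10a, Wnt16, Dkk2, Bmp2). Wnt16, whose promoter window is among those with an AP-1 match, ran from 0.998 to 2.57 CPM in ID gel (median 1.67), 4.25 to 6.64 in ID saline (4.58), 9.01 to 12.5 in SC gel (10.7) and 3.32 to 4.05 in SC saline (3.44). No gel library overlapped its controls. Wnt16 changed by -1.55 ± 0.17 and 1.56 ± 0.16 log2 units, and Wnt7b by -1.80 ± 0.25 and 1.40 ± 0.23. Sfrp2, a secreted Wnt modulator of fibroblasts, was the 1 member of the other direction, with 1.81 ± 0.34 and -1.23 ± 0.34. Its SC groups overlapped, at 8.11 to 24.2 CPM in gel and 13.8 to 76.6 in saline. The SC saline level was high in replicates 5 (76.6) and 6 (59.5), and the other libraries of that group reached at most 24.3. Of 41 growth factor and receptor genes 2 (4.88%, near the 5.57% of all genes) were members, Epgn, an EGF receptor ligand, and Fgfr3.

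Of 42 cytosolic ribosomal protein genes 38 rose at SC and 12 fell at ID, by small amounts, and 11 were members (medians -0.17 and 0.42). Rpl26 ran from 481 to 536 CPM in ID gel (median 501) and 683 to 760 in ID saline (729), without overlap, and from 634 to 928 in SC gel (862) and 545 to 653 in SC saline (596), with overlap. The changes were -0.53 ± 0.09 and 0.45 ± 0.09. With the saline groups exchanged the list held 0 members and its medians were 0.17 and 0.09. For the clock repressor Nr1d1 the saline groups differed too. It changed by -1.80 at ID and 0.45 at SC, but its saline groups differed by 1.39 log2 units (adjusted p = 0.000303 by the quasi-likelihood test of edgeR, Benjamini-Hochberg adjusted), and with a common control the SC change was -0.41. The clock time of sampling is not in the labels.

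In the other direction, higher ID and lower SC, the member whose smaller change was the largest belonged to lactate transport. Slc16a3 (chromosome 10, 106212778 to 106222562), the lactate exporter MCT4, ran from 106 to 285 CPM in ID gel (median 200) and from 10.2 to 17.7 in ID saline (11.5). At SC it ran from 1.77 to 6.21 in gel (2.40) and from 5.91 to 28.8 in saline (10.5). All ID gel libraries were far above saline, while at SC the highest gel library passed the lowest saline library. Slc16a3 rose by 3.97 ± 0.40 log2 units at ID (15.7-fold, adjusted p = 6.06e-09) and fell by 2.14 ± 0.41 at SC (4.42-fold, adjusted p = 0.000135). Its level in SC saline was 28.8 and 28.4 CPM in replicates 5 and 6, and 5.91 to 11.6 in the other libraries. The size of its SC fall thus leans on these 2 control libraries. Pgk1 (chromosome X, 71271440 to 71287418), phosphoglycerate kinase, ran from 711 to 1190 CPM in ID gel (median 972) against 411 to 510 in ID saline (467), and from 151 to 226 in SC gel (174) against 275 to 558 in SC saline (317). It had no overlap at either site and changed by 1.05 ± 0.17 and -1.05 ± 0.17. The same 2 SC saline libraries were the highest for Pgk1, at 558 and 539 CPM, against 275 to 342 in the others. Of the 28 tested genes of glycolysis and hypoxia 21 rose at ID, and at SC 8 rose and 10 fell (medians 1.06 and -0.13). The members were Slc16a3, Pgk1, Gpi, Hk2 and Pkm, and all but Pkm kept both calls under all scalings.

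Some of the larger changes of this direction were in genes of immune cells. Cd38 (chromosome 14, 67172063 to 67211986), an enzyme that consumes NAD on lymphocytes, macrophages and other cells, ran from 48.2 to 96.4 CPM in ID gel (median 74.0) and from 16.4 to 47.7 in ID saline (27.6). SC libraries ranged from 5.73 to 14.4 in gel (12.1) and from 27.4 to 60.4 in saline (38.1). Neither site overlapped, and the changes were 1.29 ± 0.26 and -1.83 ± 0.27 log2 units. Siglec1 (CD169), a sialic acid receptor of resident macrophages, ran from 68.9 to 114 CPM in ID gel (median 91.6), 10.3 to 27.6 in ID saline (16.2), 4.65 to 21.3 in SC gel (13.9) and 26.6 to 40.4 in SC saline (30.8). It changed by 2.33 ± 0.26 and -1.22 ± 0.26 without overlap. Adgre1 (F4/80), a surface receptor of macrophages, changed by 0.78 ± 0.17 and -0.76 ± 0.17 with overlapping groups.

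Siglec1 and Adgre1 were each the sole member of their macrophage list. Of 22 general macrophage genes 22 rose at ID and 17 also rose at SC. Their sum went from a median of 1800 CPM in ID saline to 35800 in ID gel, and from 1920 in SC saline to 6690 in SC gel. Of 18 resident macrophage genes 10 rose and 2 fell at ID, and at SC 2 rose and 2 fell. Among 14 MHC class II genes 12 rose at ID and 6 fell at SC (medians 0.92 and -0.22), and 4 were members (Cd74, Ciita, RT1-Da, RT1-Db1). Ciita, the transactivator of the class II genes, ran from 9.82 to 22.3 CPM in ID gel (median 17.4), 6.99 to 10.7 in ID saline (8.25), 6.58 to 8.90 in SC gel (6.75) and 10.9 to 13 in SC saline (12.1). It was apart from saline at SC and overlapped it at ID, with changes of 1.01 ± 0.14 and -0.73 ± 0.14. Cd74, the invariant chain, changed by 0.83 ± 0.13 and -0.59 ± 0.13. Ciita and Cd74 kept both calls under all scalings and the other 2 did not. With library totals the SC median of the list was 0.02, and with the saline groups exchanged it held 0 members.

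Collagen genes and their processing enzymes rose at ID in 19 of 28 cases and fell at SC in 15 (medians 0.76 and -0.37), with 8 members (Col3a1, Col5a1, Col27a1, Serpinh1, Fkbp10, P4ha1, P4ha2, Plod2). Of these P4ha1, a prolyl hydroxylase, kept both calls under all scalings. Plod2 (chromosome 8, 93084513 to 93167255), the lysyl hydroxylase of collagen telopeptides, ran from 36.4 to 81.1 CPM in ID gel (median 61.4), 4.57 to 8.61 in ID saline (6.13), 2.34 to 4.14 in SC gel (2.80) and 2.95 to 7.38 in SC saline (5.03). Its ID rise of 3.22 ± 0.23 log2 units was well outside the spread, whereas the SC groups overlapped around a fall of 0.78 ± 0.24. Col3a1, the main collagen beside type I in skin, differed more between the saline groups than between the gel groups. Its medians were 13300 CPM in ID gel, 10100 in ID saline, 11900 in SC gel and 22900 in SC saline, so the saline groups differed by -1.24 ± 0.23 log2 units (adjusted p = 0.00606) and the gel groups by 0.33 ± 0.23 (adjusted p = 0.215), both by the quasi-likelihood test of edgeR, Benjamini-Hochberg adjusted. With a common control its ID change was -0.20. Of the 28 genes 11 were lower in ID saline than in SC saline, and with a common control 2 were members higher ID and lower SC.

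Cell cycle genes rose at ID in 20 of 33 and fell at SC in 13, with medians of 0.50 and -0.34, and 5 were members (Mki67, Plk1, Cenpe, Cenpf, Ube2c). Ube2c, which feeds the anaphase-promoting complex, changed by 0.70 ± 0.23 and -0.70 ± 0.23 with overlapping groups. None of the 5 kept both calls under all scalings, although the list medians had the same signs (0.34 and -0.13 with library totals). The unfolded protein response had 20 of 21 genes higher at ID, with 7 higher and 6 lower at SC, and 5 members (Herpud1, Hyou1, Pdia4, Dnajb9, Ern1). Herpud1, of the degradation of proteins from the endoplasmic reticulum, changed by 0.39 ± 0.10 and -0.58 ± 0.10 and alone kept both calls under all scalings.

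Further members higher ID and lower SC came from various lists or none. Ncam1 (chromosome 8, 49865633 to 50166014), the neural cell adhesion molecule of nerve, muscle and lymphocytes, ran from 37.9 to 65.7 CPM in ID gel (median 55.4) and from 19.7 to 24.4 in ID saline (22.2). At SC it ran from 4.10 to 7.59 in gel (5.33) and from 18.5 to 26.4 in saline (23.3). The saline groups were alike (difference -0.02 ± 0.14 log2 units) and the gel groups lay on either side of them, with changes of 1.23 ± 0.14 and -1.99 ± 0.15. Slc39a14, a transporter of zinc, iron and manganese, changed by 1.43 ± 0.09 and -0.72 ± 0.09, and Gaa, the lysosomal glucosidase that breaks down glycogen, by 0.82 ± 0.15 and -1.10 ± 0.15. Of 31 lysosomal genes all rose at ID and 21 rose at SC, so Gaa, Hexa and Ctsh were exceptions at SC. Ppp1r3b, which targets a phosphatase to glycogen, changed by 1.00 ± 0.16 and -0.89 ± 0.17. Tgm2, a transglutaminase that crosslinks matrix, changed by 0.74 ± 0.13 and -0.71 ± 0.13, and Gfra2, a receptor of neurturin, by 1.21 ± 0.13 and -0.78 ± 0.13. C1qtnf6, a secreted protein of the C1q and TNF family, changed by 1.51 ± 0.18 and -1.07 ± 0.18, but its saline groups differed by -1.29 ± 0.18 (adjusted p = 0.000459 by the quasi-likelihood test of edgeR, Benjamini-Hochberg adjusted).

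Other large responses to the gel were not opposite. Of 26 hair shaft and follicle genes 26 fell at ID and 20 at SC, and of 17 fast muscle genes 16 fell at ID and 17 at SC. Interferon response genes rose in 23 of 25 cases at ID and 9 at SC, and chemokines in 18 and 15 of 26. These lists held 0 members in either direction, as did smooth muscle, blood vessel endothelium, T and NK cells and the respiratory chain.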

How the data were processed

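Total RNA of skin was made into stranded mRNA libraries and sequenced paired-end, per the labels' protocols. The authors deposited a table of read counts per gene with FPKM values beside them, per the file headers. The submitters' processing notes list DESeq2 1.12.4 and StringTie 1.3.3b, besides Trimmomatic 0.36 and FastQC 0.11.2. No aligner, counting program or strand setting is given in the sources used here. In the deposited table FPKM equalled the count divided by gene length and library total. Library totals were 14024353 to 18821730 counts, and shared reads of similar genes limit precision further.

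From the counts, edgeR 4.0.16 (R 4.3.3) fitted 1 model to all 24 libraries in 4 groups, with TMM factors, filterByExpr (14763 genes) and quasi-likelihood tests, and p-values were adjusted by Benjamini-Hochberg over all tested genes. The script was tested on simulated data. Alternatives used limma 3.58.1 and DESeq2 1.42.0, with other scalings, filters, controls and libraries left out. Replicate numbers were not treated as pairs, since 13 of 36 same-numbered pairs had correlated deviations above 0.1.

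Genes were described by a rule: per direction the 12 members with the largest smaller change of the 2 sites among those with a usable symbol, a mean of at least 1 log2 CPM and no overlap of gel and saline at either site, up to 2 members per direction from each gene list, and a panel of 12 genes. Of this panel 11 genes were matched and tested. Genes named without values, those in neighbour runs and the promoters shown were picked after their values were seen. The members and lists were chosen with earlier results of these data known. Promoters came from RefSeq (GRCr8). Some genes are not reported here.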

Additional observations from a re-analysis of the deposited data

Results flagged for a closer look

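A single library stood apart from the other 5 of its group in 6 of the 136 groups examined (34 genes), a share of 4.41%, where chance gives about 1 in 20. Aqp3 was 83.8 CPM in SC saline replicate 3 (next highest 62.7), Tmem61 11.1 in SC gel replicate 6 (6.07) and Krt10 7620 in SC gel replicate 3 (5820). Cpa3 was 100 in SC gel replicate 1 (62.7), Wfdc18 74.1 in ID gel replicate 6 (47.0) and Tyrp1 0.0511 in SC saline replicate 1, with 0 in the others of that group. This Tyrp1 value is 1 count.

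For the genes below the gel effect differed between the sites by the interaction test, and the members among them were chosen by it. As the ID change minus the SC change in log2 units, the difference was -4.39 for Serpinb11, -3.70 for Slpil3, -3.60 for Aqp3, -3.59 for Clstn3, -3.59 for Cyp17a1 and -3.57 for Skint1. It was -3.38 for Serpina12, -3.35 for Serpinb13, -3.32 for Moxd1, -3.22 for Tmem61, -3.18 for Slpil2, -3.11 for Wnt16 and -2.82 for Krt10. In the other direction it was 3.55 for Siglec1, 3.22 for Ncam1, 3.13 for Cd38, 2.57 for C1qtnf6, 2.15 for Slc39a14 and 2.09 for Pgk1. It was 2.04 for Basp1, 1.99 for Gfra2, 1.91 for Gaa, 1.88 for Ppp1r3b, 1.54 for Adgre1, 1.46 for Tgm2 and 1.43 for Cd74. Genes outside the members had differences of -2.05 (Ivl), -2.17 (Cpa3), -2.08 (Tpsab1), -1.77 (Gata3), -1.48 (Ccl24), -6.21 (Wfdc18) and -7.64 (Tyrp1). In SC saline Tyrp1 had 1 count in total, and Wfdc18 had a median of 0.63 CPM. The sizes of these last 2 differences thus rest on controls near 0.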

How the results depend on the processing

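The 823 genes lower ID and higher SC became 1491 with library totals, 1421 with FPKM + 1 and 1370 with FPKM + 0.1, and the 385 of the other direction 82, 78 and 77. Members past 1 log2 unit lower ID and higher SC (234), and members past 1 log2 unit higher ID and lower SC (19), became 407 and 11 with library totals, and 2 and 5 in the second direction with FPKM + 1 and FPKM + 0.1. That second count was 12 with each site fitted alone, 34 with gel replicates 1 to 3 and 11 with a common saline control. Gel replicates 1 to 3 gave 241 and gel replicates 4 to 6 gave 190 genes higher ID and lower SC. The 234 became 154 with a common control and 143 with the saline groups exchanged. Leaving out 1 library gave 758 to 1023, 149 to 369, 211 to 313 and 13 to 22 in the same order, with 149 and 1023 without SC saline replicate 2. Saline groups compared with each other differed in 475 genes, which became 316 without a filter, 1600 with limma voom, 714 beside gel replicates 4 to 6, and 132 to 888 with 1 library left out. DESeq2 gave 967 and 324 members, and the replicate block, in which replicate numbers served as pairs, 828 and 406. Signs turned as follows, and the cause was not tested. With library totals, FPKM + 1 and FPKM + 0.1 the SC change of Psmc3 was 0.04, 0.04 and 0.04 and its interaction -0.01, 0 and 0. With a common control the ID change of Col3a1 was -0.20 and the SC change of Nr1d1 was -0.41. With the saline groups exchanged, ID changes were -0.69 for Col3a1, 0.09 for Stfa2 and -0.09 for Ccn4, and SC changes 0.22 for Col3a1, 0.22 for C1qtnf6, 0.35 for Il13ra2, 0.11 for Cenpe, -0.05 for Me1 and -0.94 for Nr1d1. Interactions then were -0.91 for Col3a1, 0 for C1qtnf6, -0.08 for Ccn4, 0.54 for Nr1d1, 0.28 for Wfdc18 and 6.51 for Tyrp1. At these depths low members such as Serpinb11 rest on few counts per library.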
